A study of Mus musculus with 6 samples.

Results

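The 10 genes described here are neural and general regulators of alternative splicing, together with Rest, the repressor of neural genes. They are Srrm3, Srrm4, Ptbp1, Ptbp2, Ptbp3, Nova1, Nova2, Rbfox1, Rbfox2 and Rest, chosen by name, and all 10 were found among the 23337 gene symbols of each library. Ptbp3 is listed under its older symbol Rod1. RNA was sequenced from outer hair cells, which amplify sound in the cochlea by changing their length, sorted from mouse embryos at E18.5 by the fluorescence of a GFP-Cre allele at Insm1, in 3 Insm1-KO and 3 Insm1-Het libraries. Insm1 encodes a zinc-finger transcription factor of nascent outer hair cells. Both genotypes carry the GFP-Cre allele, and the series asks whether outer hair cells turn into inner hair cells without Insm1. The labels do not say whether libraries came from separate animals, litters or pools, so the spread between them may be technical.

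Splicing regulators bind RNA near an exon and raise or lower its inclusion, and a small set of them sets the splicing pattern of neurons. Srrm4 and its relative Srrm3 are serine- and arginine-rich proteins that promote the inclusion of very short neural exons, called microexons. Srrm4 is also needed in some hair cells: Bronx waltzer mice, which carry a mutation in it, lose part of their hair cells and are deaf. Whether outer hair cells need it was not tested here. Among its targets in hair cells is an alternative exon of Rest, whose inclusion gives a truncated protein with less repressor activity. Ptbp1 holds many neural exons out of transcripts in non-neural cells, and its paralog Ptbp2 takes its place in differentiating neurons. Nova1, Nova2 and Rbfox1 act in neurons, Rbfox1 also in muscle, while Ptbp3 and Rbfox2 are found in many tissues.

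A pair of transcript stretches show where the 10 genes act on each other, and both are printed because the counts below sum over their inclusion and skipping. The first is the Ptbp2 exon that Ptbp1 is known to hold out of the transcript, which exposes it to nonsense-mediated decay. It is 34 bases long and lies at chr3:119724612-119724645 on the minus strand of GRCm38. It was included in 3 annotated transcripts and skipped in 3 that span it. It is shown in capitals between 15 bases of each neighbouring exon. The second is the Rest exon of 84 bases before the last exon, in lower case, followed by the first 30 bases of the last exon in capitals, on the plus strand of chromosome 5. The alternative exon of Rest is inserted at that junction, and neither of the 2 annotated Rest transcripts contains it.
Ptbp2: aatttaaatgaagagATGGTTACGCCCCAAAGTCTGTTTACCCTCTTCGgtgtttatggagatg
Rest: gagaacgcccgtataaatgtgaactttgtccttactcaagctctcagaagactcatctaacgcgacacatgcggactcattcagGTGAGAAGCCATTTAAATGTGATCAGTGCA
The deposited counts are per gene, so they do not show how often either exon was included.

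The libraries held 9259736, 7705177 and 9748629 counts in Insm1-KO and 11738214, 10721902 and 12427039 counts in Insm1-Het. Insm1 itself was at 78.5, 60.1 and 18.7 CPM (counts divided by the scaled library total) in Insm1-KO and 109, 116 and 69.0 CPM in Insm1-Het libraries, and its difference did not pass the test across all genes (Benjamini-Hochberg adjusted p = 0.938, edgeR quasi-likelihood F test). Which part of Insm1 the allele removes is not given in the labels, so reads of Insm1 check the genotypes only in part. All 14 hair cell markers and all 6 outer hair cell markers listed for a check passed the filter on low counts, though the outer hair cell marker Ocm had 0 counts in all 3 Insm1-Het libraries, with Myo6, a hair cell myosin, at 4978 ± 167 CPM in Insm1-KO and 5061 ± 181 CPM in Insm1-Het (SD, n = 3). Summed hair cell markers ran from 13576 to 15479 CPM in Insm1-KO and from 13360 to 14235 CPM in Insm1-Het libraries.

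Levels of different genes are compared below only per length, as CPM per kilobase of annotated exon, written RPKM. The order from high to low was Ptbp1, Rbfox2, Srrm4, Ptbp3, Rest, Ptbp2, Srrm3, Nova2, Nova1 and Rbfox1. Srrm4 was thus the only neural regulator of the 6 in the upper part of the order, beside the general regulators. The other 5, Ptbp2, Srrm3, Nova2, Nova1 and Rbfox1, took the last 5 places. Ptbp1 was above Rbfox2, Srrm4 above Ptbp3, Ptbp3 above Rest and Rest above Ptbp2 in 6 of 6 libraries. Rbfox2 and Srrm4 were not separated: Rbfox2 was higher in 5 of 6 libraries. Ptbp2 and Srrm3, Srrm3 and Nova2, and Nova2 and Nova1 each kept their order in 3 of 6 libraries only, and Nova1 and Rbfox1 in 5 of 6. Of the 10 possible pairs among these last 5 genes, 3 were separated in 6 of 6 libraries: Ptbp2 was above Nova1 and Rbfox1, and Srrm3 was above Rbfox1.

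**Figure D1:**
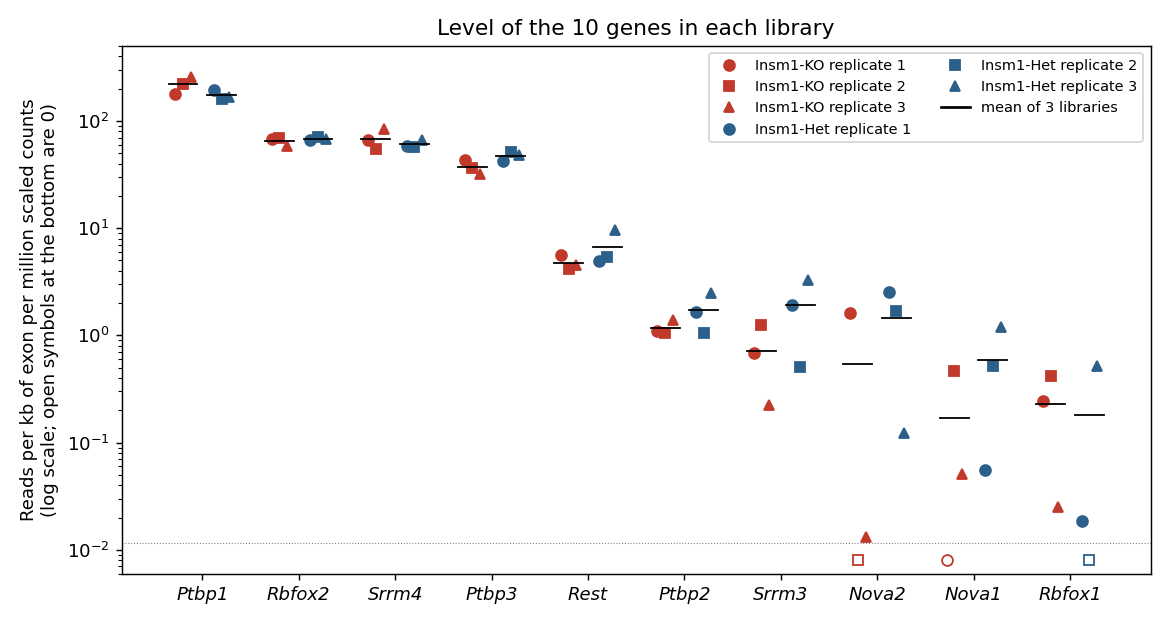
Level of each of the 10 genes in every library, in RPKM (CPM per kilobase of exon) on a log scale, with Insm1-KO libraries in red left of Insm1-Het libraries in blue, replicates by symbol and the mean of 3 libraries as a bar; open symbols at the bottom mark libraries with 0 counts. Ptbp1, Rbfox2, Srrm4 and Ptbp3 lie between 31.8 and 255 RPKM in every library, Rest between 4.16 and 9.59, and the other 5 genes below 3.3.

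Srrm4, the microexon regulator (chr5:116439275-116591817), was at 66.4, 55.1 and 83.2 RPKM in Insm1-KO libraries and at 58.0, 57.2 and 66.9 RPKM in Insm1-Het libraries. The highest value belonged to Insm1-KO replicate 3 and the lowest to Insm1-KO replicate 2, so the genotypes overlapped. Its mean over 6 libraries stood at percentile 95.3 of the 11577 tested genes with a known length. Srrm3 (chr5:135806890-135874772), which has the same activity on microexons in other neural cells, was at 0.681, 1.24 and 0.225 RPKM in Insm1-KO and at 1.90, 0.510 and 3.29 RPKM in Insm1-Het libraries. Its values spread 14.6-fold over the 6 libraries, against 1.51-fold for Srrm4. The level of Srrm4 was 96.2, 44.1 and 356 times that of Srrm3 in Insm1-KO libraries and 30.4, 111 and 20.3 times in Insm1-Het libraries. Srrm4 made up 95.3% to 99.7% of the summed level of both genes in every library.

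Rest, the zinc-finger repressor that keeps neural genes off in other tissues (chr5:77265491-77286432), was at 5.65, 4.16 and 4.50 RPKM in Insm1-KO libraries and at 4.93, 5.43 and 9.59 RPKM in Insm1-Het libraries. Insm1-Het replicate 3 was the one high library, and the others lay close together. Rest stood at percentile 43.8 of tested genes, close to the middle. Srrm4 was therefore well above Rest per length in every library, by 11.7, 13.2 and 18.4 times in Insm1-KO and 11.8, 10.5 and 6.98 times in Insm1-Het. On the log2 scale this ratio was 3.83 ± 0.34 in Insm1-KO and 3.25 ± 0.40 in Insm1-Het (SD, n = 3). The difference of 0.58 came with overlapping genotypes, and was 0.35 without Insm1-Het replicate 3.

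Among the polypyrimidine tract binding proteins, Ptbp1 dominated. Ptbp1 (chr10:79854427-79864771) was at 178, 223 and 255 RPKM in Insm1-KO and at 193, 161 and 167 RPKM in Insm1-Het libraries, and only 86 of the 11577 tested genes with a length had a higher mean. Insm1-KO replicate 1 lay below Insm1-Het replicate 1, so the genotypes overlapped. Ptbp3 (chr4:59471868-59549364), an RNA-binding paralog first described in blood cells, was at 43.4, 36.3 and 31.8 RPKM in Insm1-KO and at 42.7, 50.9 and 47.6 RPKM in Insm1-Het libraries. Here Insm1-KO replicates 2 and 3 were below every Insm1-Het library and replicate 1 was not.

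Ptbp2, the neural paralog (chr3:119718742-119784466), was at 1.09, 1.05 and 1.40 RPKM in Insm1-KO and at 1.65, 1.06 and 2.47 RPKM in Insm1-Het libraries. It took 0.491%, 0.404% and 0.486% of the summed level of the family in Insm1-KO libraries and 0.692%, 0.497% and 1.14% in Insm1-Het libraries. Ptbp1 took 84.7 ± 4.34% in Insm1-KO and 78.0 ± 3.01% in Insm1-Het libraries (SD, n = 3). Ptbp1 was thus between 67.6 and 211 times as high as Ptbp2. The log2 ratio of Ptbp2 to Ptbp1 was -7.34, -7.72 and -7.50 in Insm1-KO and -6.87, -7.24 and -6.08 in Insm1-Het libraries. The genotypes did not overlap, but the margin was narrow. The nearest libraries, Insm1-KO replicate 1 at -7.34 and Insm1-Het replicate 2 at -7.24, rested on 94 and 104 Ptbp2 counts. The mean difference was -0.79, and it was -0.46 without Insm1-Het replicate 3. Of 9 such ratios computed among the 10 genes, 2 separated the genotypes. No test was made, since the genes in them were chosen. Among all tested genes 11.2% had genotypes that did not overlap, but that share is for single genes. The share for ratios was not measured, and several of the 9 ratios hold Ptbp1.

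**Figure D2:**
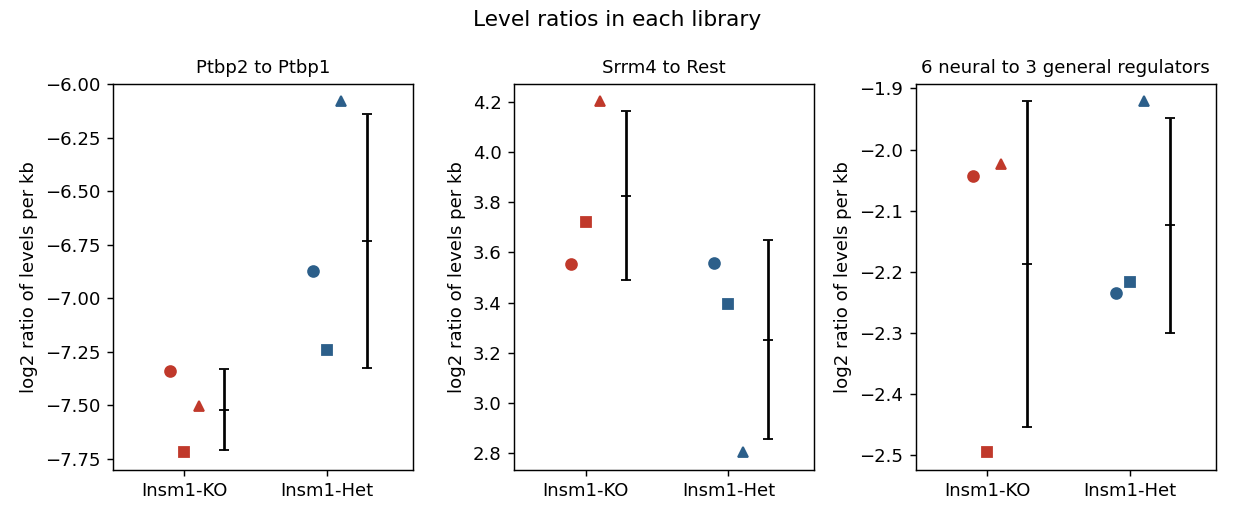
Log2 ratios of levels per kilobase in every library, with Insm1-KO left of Insm1-Het, replicates 1, 2 and 3 as circle, square and triangle, and the mean with SD of 3 libraries beside them; the 3 panels have different vertical scales. The ratio of Ptbp2 to Ptbp1 is lower in all 3 Insm1-KO libraries, narrowly so between Insm1-KO replicate 1 and Insm1-Het replicate 2. The ratios of Srrm4 to Rest and of the 6 neural to the 3 general regulators overlap between genotypes.

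The KH-domain proteins Nova1 and Nova2 and the Fox protein Rbfox1 had few or no counts in some libraries and up to 263 in others. Nova1 (chr12:46694517-46818929) had 0, 31 and 4 counts in Insm1-KO libraries and 6, 49 and 132 counts in Insm1-Het libraries. Nova2 (chr7:18925888-18965319) had 126, 0 and 1 counts in Insm1-KO and 263, 152 and 13 counts in Insm1-Het libraries. The libraries high for Nova2, Insm1-KO replicate 1 and Insm1-Het replicates 1 and 2, were not the one highest for Nova1. Rbfox1 (chr16:5885355-7411526) had 10, 14 and 1 counts in Insm1-KO and 1, 0 and 29 counts in Insm1-Het libraries. A count of 0 allows up to 0.319 CPM of Nova1 in Insm1-KO replicate 1, 0.391 CPM of Nova2 in Insm1-KO replicate 2 and 0.28 CPM of Rbfox1 in Insm1-Het replicate 2 (the limit of 3 counts, for counting error only). The coefficient of variation between libraries was 148% for Nova1 and 171% for Nova2 in Insm1-KO, and 96.6% for Nova1 and 84.6% for Nova2 in Insm1-Het. Genes with a mean under 5 CPM, as Nova1 had, showed medians of 104% in Insm1-KO and 90.2% in Insm1-Het, and genes of 5 to 50 CPM, as Nova2 was, medians of 61.8% in Insm1-KO and 48.9% in Insm1-Het.

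Rbfox2, the broadly expressed Fox protein (chr15:77078990-77307004), was the steadiest of the 10 genes. It was at 67.6, 69.5 and 58.1 RPKM in Insm1-KO and at 65.8, 71.5 and 67.2 RPKM in Insm1-Het libraries, a spread of 1.23-fold over all 6. At least 99.2% of the summed level of Rbfox1 and Rbfox2 came from Rbfox2 in every library.

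Summed over classes, the 6 neural regulators reached 70.0, 58.3 and 84.9 RPKM in Insm1-KO and 64.2, 61.0 and 74.5 RPKM in Insm1-Het libraries. The 3 general regulators Ptbp1, Ptbp3 and Rbfox2 reached 289, 328 and 345 RPKM in Insm1-KO and 302, 284 and 282 RPKM in Insm1-Het libraries. Neural regulators thus made up 15.1% to 20.9% of the sum of the 9 splicing regulators, and Srrm4 alone was 89.8% to 98.0% of the neural sum. The log2 ratio of the neural to the general sum was -2.19 ± 0.27 in Insm1-KO and -2.12 ± 0.18 in Insm1-Het (SD, n = 3), a difference of -0.06 that is smaller than either SD. Without Srrm4 the same ratio was -6.32, -6.70 and -7.65 in Insm1-KO and -5.61, -6.23 and -5.21 in Insm1-Het libraries. It was the second of the 2 ratios whose genotypes did not overlap, and it was added after the values were seen. The nearest libraries, Insm1-KO replicate 1 at -6.32 and Insm1-Het replicate 2 at -6.23, lay close together. The sum leaves out the neuronal Rbfox3, described below, which was higher in every Insm1-KO library than in any Insm1-Het library. A ratio with Rbfox3 was not computed.

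None of the 10 genes differed between Insm1-KO and Insm1-Het in the test across all genes. Adjusted p values ran from 0.938 for Ptbp1 to 0.996 for Rbfox1 and Rbfox2 (edgeR quasi-likelihood F test, Benjamini-Hochberg adjusted over 11714 genes). Of all tested genes 0% passed, so the test made no call to read the 10 genes against. At an unadjusted p under 0.05 the count was 0 of 10 genes, where all tested genes had 5.34%. No gene had all Insm1-KO libraries above all Insm1-Het libraries (5.1% of tested genes) or below them (6.1%). DESeq2 and limma-voom also called 0 of the 10, while DESeq2 called 26 genes among all those tested.

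How large a difference these libraries leave possible depended on the level of the gene. For the 4 high genes the 95% intervals of the log2 fold change, Insm1-KO over Insm1-Het, were narrow. The log2 fold change was 0.33 for Ptbp1 (interval -0.08 to 0.74), 0.17 for Srrm4 (-0.29 to 0.62), -0.07 for Rbfox2 (-0.48 to 0.35) and -0.34 for Ptbp3 (-0.83 to 0.15). In linear terms the 95% interval of Srrm4 in Insm1-KO ran from 0.819 to 1.54 times its Insm1-Het level. That of Rbfox2 ran from 0.715 to 1.27 times. For Rest, with a log2 fold change of -0.48 (-1.58 to 0.62), the interval ran from 0.334 to 1.54 times. If the spread between libraries is technical, these intervals do not cover differences between animals. The remaining intervals were wide: -0.55 for Ptbp2 (-2.33 to 1.24), -1.41 for Srrm3 (-3.90 to 1.08), -1.43 for Nova2 (-5.08 to 2.22), -1.79 for Nova1 (-5.74 to 2.16) and 0.33 for Rbfox1 (-4.30 to 4.95). Of the 10 log2 fold changes 7 lay below 0, where 49.1% of all tested genes did, and the median was -0.41 against 0.02 over all tested genes. Nova2 is among those 7. With 126, 0 and 1 counts in Insm1-KO libraries, Nova2 passed the filter on low counts only with its Insm1-Het values. Its difference is thus a description. In pooled cells a lower count cannot tell less RNA per cell from fewer cells that hold it.

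**Figure D3:**
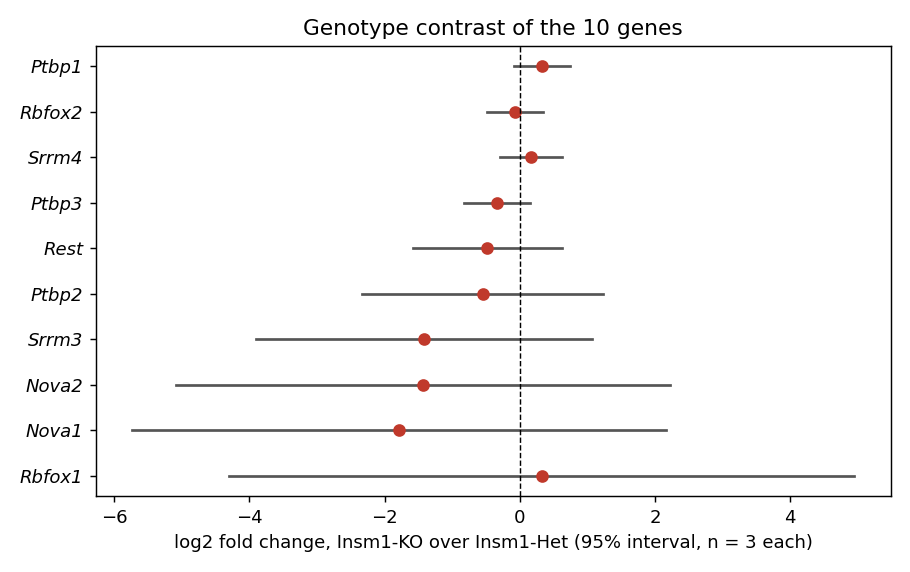
Log2 fold change of Insm1-KO over Insm1-Het for each of the 10 genes, from high to low level, with 95% intervals from edgeR's quasi-likelihood fit (3 libraries per genotype); the dashed line marks no difference. All 10 intervals include 0, the narrowest being that of Ptbp1 (-0.08 to 0.74) and the widest that of Rbfox1 (-4.30 to 4.95).

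Intervals were wider for rarely counted genes in general. Genes with a mean of 500 CPM or more had a median SE of 0.20 for the log2 fold change, those of 5 to 50 CPM a median of 0.84 and those under 5 CPM a median of 1.80. Srrm4 had an SE of 0.21, Ptbp2 of 0.83 and Nova1 of 1.84, each close to the median at its level. Srrm3 with an SE of 1.16 and Nova2 with an SE of 1.70 lay above the median of genes of 5 to 50 CPM.

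Beside the 10 genes, other splicing regulators that are restricted to certain tissues were read from a list of 19 genes, of which 16 were tested. The highest was Rbm24, an RNA-binding protein of muscle and hair cells, at a mean of 180 RPKM, followed by Raver2, a cofactor that binds polypyrimidine tract binding proteins, at 126 RPKM. These 2 genes were above Srrm4, and no gene of the list was above Ptbp1. The neuronal Elavl3, at 0.398 RPKM, was the lowest tested gene of the list, whose median was 4.15 RPKM. Rbfox3, the neuronal antigen NeuN and a relative of Rbfox1, stood at 6.96 RPKM and thus above Rbfox1 at 0.203 RPKM. It was at 44.9, 43.5 and 83.4 CPM in Insm1-KO and at 35.0, 29.1 and 7.01 CPM in Insm1-Het libraries. Its log2 fold change was 1.27 (SE 0.63), and it did not pass the test (Benjamini-Hochberg adjusted p = 0.938, edgeR quasi-likelihood F test). Rbfox3 was chosen after its values were seen.

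By genotype 0 of these 16 passed, and the median log2 fold change was 0.37. At an unadjusted p under 0.05, 2 were higher and 1 lower in Insm1-KO (all tested genes 3.19% and 2.15%), and 4 were higher and 2 lower without overlap (all tested genes 5.1% and 6.1%). Raver2 was at 974, 752 and 1110 CPM in Insm1-KO and at 741, 683 and 522 CPM in Insm1-Het libraries, a log2 fold change of 0.54 (SE 0.21). Insm1-KO replicate 2 exceeded Insm1-Het replicate 1 only narrowly. Esrp1, an epithelial splicing regulator, was at 75.9, 58.2 and 105 CPM in Insm1-KO and at 55.1, 26.2 and 34.2 CPM in Insm1-Het libraries. Elavl4, the neuronal RNA-binding protein HuD, was at 2.24, 1.30 and 1.55 CPM in Insm1-KO and at 16.2, 13.9 and 5.12 CPM in Insm1-Het libraries. For Raver2, Esrp1 and Elavl4 alike the Benjamini-Hochberg adjusted p was 0.920 (edgeR quasi-likelihood F test), so none of the 3 passed.

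All 45 general splicing regulators of a second list were tested, with a median of 30.5 RPKM against 7.14 RPKM over all tested genes with a length. Ptbp1 was above all 45 of them, Srrm4 had 8 of them above it and Rest had 40. Srsf2, a serine- and arginine-rich splicing factor, at 141 RPKM and Srrm2, a large spliceosome scaffold of the Srrm family, at 140 RPKM were the highest. By genotype 0 passed and the median log2 fold change was 0.01. At an unadjusted p under 0.05, 1 was higher and 2 were lower in Insm1-KO, and 2 were higher and 5 lower without overlap. For 45 genes these counts are close to the background of 5.34% and 11.2% of all tested genes. Mbnl2, a muscleblind protein, averaged 17.03 ± 7.17 CPM in Insm1-KO and 2.43 ± 2.68 CPM in Insm1-Het (SD, n = 3). With 20, 58 and 3 counts in Insm1-Het libraries, Mbnl2 passed the filter on low counts only with its Insm1-KO values. Its difference is thus a description. Srsf5, a serine- and arginine-rich factor, averaged 183.9 ± 44.0 CPM in Insm1-KO and 275 ± 28.7 CPM in Insm1-Het. Rnps1, a component of exon junction complexes, averaged 23.4 ± 0.542 CPM in Insm1-KO and 51.2 ± 12.3 CPM in Insm1-Het. Mbnl2, Srsf5 and Rnps1 did not overlap between genotypes and had unadjusted p values under 0.05. The Benjamini-Hochberg adjusted p was 0.920 for Mbnl2 and 0.926 for Srsf5 and Rnps1 (edgeR quasi-likelihood F test).

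**Figure D4:**
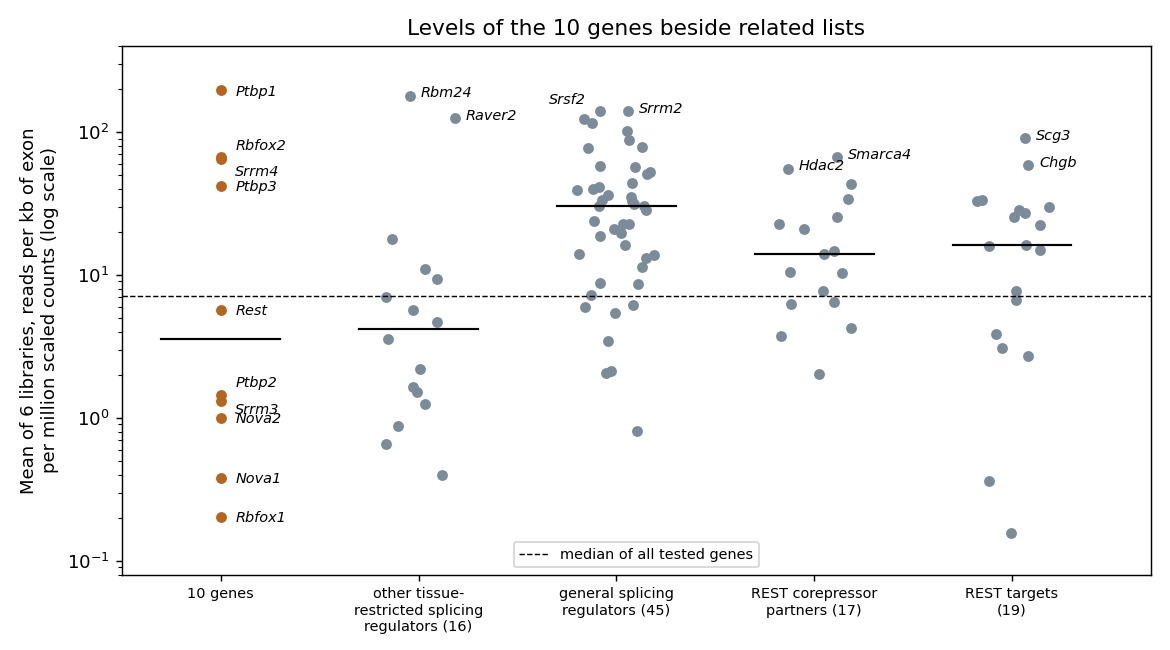
Mean level over 6 libraries, in RPKM (CPM per kilobase of exon) on a log scale, of the 10 genes and of the tested members of 4 lists, with the median of each group as a solid line, the median of all tested genes with a length (7.14 RPKM) as a dashed line and the 2 highest members of each list named. Ptbp1 lies above every member of the 4 lists, Srrm4 lies in their upper part, and Rest, Ptbp2, Srrm3, Nova1, Nova2 and Rbfox1 lie below the dashed line.

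Rest acts through corepressors, and all 17 listed partners were tested. Their median was 13.9 RPKM, and 14 of them were above Rest itself. The highest were Smarca4, the chromatin-remodelling ATPase BRG1, at 66.3 RPKM and Hdac2, a histone deacetylase, at 55.5 RPKM. By genotype 0 passed, 8 lay above and 9 below 0, and the median log2 fold change was -0.06. Hdac2 was at 246, 207 and 105 CPM in Insm1-KO and at 299.7, 325 and 308 CPM in Insm1-Het libraries, and every Insm1-KO library was below every Insm1-Het library. Hdac2 did not pass the test (Benjamini-Hochberg adjusted p = 0.920, edgeR quasi-likelihood F test). Without overlap, 1 of the 17 was higher and 1 lower (all tested genes 5.1% and 6.1%). The higher one was Kdm1a, at 255, 221 and 308 CPM in Insm1-KO and at 173, 202 and 179 CPM in Insm1-Het libraries. Kdm1a did not pass either (adjusted p = 0.938, same test) and was named after its values were seen.

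Of 27 textbook target genes of Rest, 19 were tested. The granule proteins Scg3 at 90.4 RPKM and Chgb at 58.5 RPKM were the highest, and 14 of the 19 were above Rest per length. At the other end, Tubb3, a neuronal tubulin, had 0, 26 and 0 counts in Insm1-KO and 6, 21 and 0 counts in Insm1-Het libraries, and Vgf, a neuropeptide precursor, had 0 counts in all 6; both were picked with their values in view. The targets of Rest therefore ranged from near 0 to among the abundant genes in the same libraries. By genotype 0 passed, 11 lay above and 8 below 0, and the median log2 fold change was 0.12. Cplx1, the vesicle fusion regulator complexin, was the 1 target of 19 with an unadjusted p under 0.05, a share close to the 5.34% of all tested genes. It was at 64.2, 92.8 and 89.5 CPM in Insm1-KO and at 40.5, 32.5 and 35.2 CPM in Insm1-Het libraries, and its Benjamini-Hochberg adjusted p was 0.920 (edgeR).

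Neurons of the spiral ganglion express Nova1, Nova2, Rbfox1, Ptbp2 and Srrm3, so their markers were read in the same libraries. Of 18 markers 10 were tested, 0 passed, 2 lay above and 8 below 0, and the median log2 fold change was -0.76. Among those below 0, Gap43, Mapt and Ntrk2 passed the filter on low counts only with their Insm1-Het values. Their differences are thus descriptions, and the lean below 0 rests partly on them. Of markers the filter left out, Nefh and Ntrk3 were highest in Insm1-KO replicate 3, and Scn9a and Prph in Insm1-Het replicate 2. The sum of all 18 markers ran from 952 to 1614 CPM in Insm1-KO and from 1010 to 1242 CPM in Insm1-Het libraries, most of it from the neurofilament genes Nefl and Nefm. Neurod1, a defining neuronal transcription factor, had 3, 0 and 0 counts in Insm1-KO and 2, 0 and 25 counts in Insm1-Het libraries. Gap43, a growth cone protein, had 0, 39 and 1 counts in Insm1-KO and 24, 150 and 124 counts in Insm1-Het libraries. Of the 18 markers, 6 were highest in Insm1-Het replicate 3, the library in which Rest, Ptbp2, Srrm3, Nova1 and Rbfox1 were highest, while 6 were highest in Insm1-Het replicate 2 and 3 each in Insm1-KO replicates 2 and 3. The part of such RNA in the levels of the low neural regulators was not tested. Neurod1 and Gap43 were each highest in an Insm1-Het library and do not stand for the list. The 2 markers above 0, Nefl and Nefm, had log2 fold changes of 0.18 and 0.32. Neurod1, Gap43, Mapt, Ntrk2, Nefh, Ntrk3, Scn9a and Prph were chosen after their values were seen.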

How the data were processed

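The deposited values are raw counts of reads for each gene symbol, with a separate file for every library. HTSeq, STAR and Trimmomatic, and the build GRCm38 (mm10), are named in the submitters' processing notes. Versions, annotation, strand setting and the treatment of multiply mapped reads are not stated there. Per the labels' protocols, ribosomal RNA was removed and cDNA was primed with random hexamers, amplified and read as paired 100-base ends.

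From these counts, 11714 genes were kept by filterByExpr (minimum count 10, minimum total 15), all 10 described genes among them, with TMM scaling. The genotype contrast was fitted in edgeR 4.0.16 (quasi-likelihood F test, genotype as the only term, Benjamini-Hochberg over all tested genes, threshold 0.05). The fit was also run on simulated data, whose outcome is not reported here. Alternatives used DESeq2 1.42.0 and limma 3.58.1. Intervals are 95% intervals, the fold change plus or minus its SE times a t quantile. Lengths are merged exons of GENCODE M21 on GRCm38, with 22813 of 23337 symbols matched. Ratios of gene pairs add 0.5 to each count; 3 of 9 ratios were set at the start and 6 added.

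Without a stated strand setting, reads of overlapping genes cannot be told apart. Exons of other genes cover 31.7% of Nova2 (opposite strand), 20.7% of Ptbp1 (opposite strand), 3.54% of Nova1, 2.77% of Ptbp3 and 0.784% of Srrm4, so these levels are uncertain; the share of reads from the overlapping parts was not measured. Of the 100-base words of Ptbp1 transcripts, 9.63% occur in transcripts of other genes, Gm4900 among them; Ptbp1, Ptbp2 and Ptbp3 share none with each other.

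The 10 genes and all lists were chosen with earlier results of these data known. Genes named beside the 10 were list members past the adjusted threshold, those with unadjusted p under 0.05 and genotypes that did not overlap, and the 2 highest per length of each list; others are marked. The 9 marker lists of cell types held hair cell, outer hair cell, neuron, glia, supporting cell, mesenchyme, erythroid, immune and endothelial genes.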

Additional observations from a re-analysis of the deposited data

How the results depend on the processing

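Of 158 refitted log2 fold changes of the 10 genes, 154 kept their direction and none passed the adjusted threshold. Rbfox1 turned to -0.21, -0.24 and -0.42 without Insm1-Het replicate 1, Insm1-Het replicate 2 and Insm1-KO replicate 2, and Rbfox2 to 0.016 without Insm1-KO replicate 3 (ranges with 1 library left out -0.42 to 4.21 and -0.11 to 0.016); the cause was not tested. With 1 library left out, log2 fold changes ran from -2.06 to -0.75 for Srrm3, -7.45 to -0.75 for Nova2, -4.46 to -0.75 for Nova1, -0.80 to -0.19 for Ptbp2, -0.66 to -0.11 for Rest, 0.21 to 0.46 for Ptbp1 and 0.0090 to 0.31 for Srrm4. Among all genes, calls went to 26 in DESeq2, 67 with no filter, 1 in the newer form of the fit and 1 with the replicate block, against 0 in the reported fit, 0 in limma-voom and 0 with any library left out; 626 genes had an unadjusted p under 0.05. Same-numbered libraries correlated at 0.0101, 0.0073 and 0.0144 in their deviations from the genotype means, and Insm1-KO replicate 2 correlated more with Insm1-Het replicate 1, at 0.0227, so the numbers of the replicate block are not shown to pair libraries.

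The order of the 10 levels kept 9 of 9 neighbouring places with the longest transcript as length and 8 of 9 with the longest coding sequence. Over 6 libraries, the mean log2 ratio of Ptbp2 to Ptbp1 was -7.13, and -6.53 with the longest transcript or -6.11 with the coding sequence; that of Srrm4 to Rest was 3.54, and 4.64 with the coding sequence; and the neural to general ratio was -2.16, and -1.82 with the coding sequence. These shifts come from the lengths alone. With 1 library left out the 3 means ran from -7.33 to -7.01, 3.41 to 3.69 and -2.20 to -2.09, and the differences between genotypes from -1.04 to -0.46, 0.35 to 0.73 and -0.15 to 0.09.

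For 34 genes chosen by rule from the lists, not all of them named here, 20 of 542 refits turned, and the cause was not tested. Scg3 turned to -0.0023 in limma-voom, -0.034 with upper quartile and -0.059 with library size scaling, and -0.014 with the replicate block. With 1 library left out, log2 fold changes ran from -0.20 to 0.18 for Scg3 (-0.0031 without Insm1-Het replicate 3), -0.31 to 0.020 for Srsf2, -0.12 to 0.44 for Smarca4, -0.98 to 0.038 for Chgb, -0.055 to 0.0036 for Myo6, -0.066 to 0.49 for Nefm, -0.73 to 0.61 for Sox10, -0.073 to 0.28 for Cnp, -0.41 to 0.038 for Sox2, -0.34 to 0.096 for Pdgfra (0.047 without Insm1-Het replicate 3), -3.06 to 0.66 for Lum (0.086 without Insm1-KO replicate 2) and -1.24 to 0.30 for Egfl7 (0.063 without Insm1-KO replicate 1).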

Other observations

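Genes whose log2 CPM ran most like that of a described gene over the 6 libraries were sought among 10322 genes with a mean of at least 5 CPM. For Srrm4 they were Crot, Sorbs2 and St7 (Pearson r = 0.992, 0.989 and 0.985). For Rest they were Acot13, Cdh4 and Col9a3 (r = 0.988, 0.987 and 0.983), and for Srrm3 Nagk, Entpd5 and Nhp2 (r = 0.994, 0.982 and 0.981). Across all genes searched the third-highest r had a median of 0.983, so likeness of this size is usual over 6 libraries.

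Markers of other cell types were counted in the same libraries. Summed supporting cell markers ran from 1948 to 2511 CPM in Insm1-KO and from 1684 to 1950 CPM in Insm1-Het libraries, and glial markers from 223 to 239 CPM in Insm1-KO and from 152 to 272 CPM in Insm1-Het. Mesenchyme markers ran from 280.3 to 346 CPM in Insm1-KO and from 257 to 475 CPM in Insm1-Het, and immune markers from 39.5 to 136 CPM in Insm1-KO and from 87.2 to 122.6 CPM in Insm1-Het. Endothelial markers ran from 8.46 to 29.98 CPM in Insm1-KO and from 5.52 to 29.5 CPM in Insm1-Het, and erythroid markers from 2.66 to 6.18 CPM in Insm1-KO and from 0.560 to 1.22 CPM in Insm1-Het. The immune sum was almost all Laptm5, a lysosomal protein, at 37.4, 40.9 and 135.7 CPM in Insm1-KO and 84.8, 108.2 and 120.2 CPM in Insm1-Het, while Csf1r had 0 counts in all 6 libraries. The mesenchyme sum was mostly Pdgfra, a growth factor receptor, at 260.0 ± 80.0 CPM in Insm1-KO and 284.6 ± 61.6 CPM in Insm1-Het (SD, n = 3). None of the tested markers passed the adjusted threshold in edgeR, DESeq2 or limma-voom.

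Of 57 tested markers of all these cell types, hair cells included, 7 had an unadjusted p under 0.05 (5.34% of all tested genes) and 9 had genotypes that did not overlap (11.2% of all tested genes). Both held for 6, Ocm among them. The hair cell markers Gfi1 and Lhx3 and the outer hair cell marker Strip2 did not overlap either, but their unadjusted p was not under 0.05. All 3 were lower in Insm1-KO, at means of 141, 72.2 and 201 CPM against 184, 111 and 281 CPM in Insm1-Het. Of the 14 hair cell markers 8 lay above and 6 below 0, with a median log2 fold change of 0.09. Atoh1, the transcription factor that starts hair cell differentiation, averaged 675 ± 169 CPM in Insm1-KO and 432 ± 19.8 CPM in Insm1-Het (SD, n = 3). Tmc1, a subunit of the mechanotransduction channel, averaged 25.4 ± 5.72 CPM in Insm1-KO and 4.14 ± 4.75 CPM in Insm1-Het. With 117, 5 and 31 counts in Insm1-Het libraries, Tmc1 passed the filter on low counts only with its Insm1-KO values. Its difference is thus a description. Ocm, the calcium buffer oncomodulin, averaged 2.71 ± 1.04 CPM in Insm1-KO and had 0 counts in all 3 Insm1-Het libraries; it passed the filter on low counts only through its Insm1-KO values, so its difference is a description. Among supporting cell markers, Lfng, a fringe enzyme of Notch signalling, averaged 70.1 ± 48.6 CPM in Insm1-KO and 23.3 ± 2.25 CPM in Insm1-Het. The Lfng mean in Insm1-KO rested on replicate 3, at 126.1 CPM against 40.4 and 43.7 CPM in the other two. S100a1, a calcium-binding protein, averaged 323 ± 97.8 CPM in Insm1-KO and 200.1 ± 38.7 CPM in Insm1-Het, and Gjb2, a gap junction protein, 6.20 ± 1.85 CPM in Insm1-KO and 32.9 ± 19.01 CPM in Insm1-Het.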
